A study of Mus musculus with 6 samples.

Results

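The FGF ligands and receptors of the mouse retina, together with Nudt6, the gene that overlaps Fgf2 on the opposite strand, make up the 10 genes described here out of 24346 gene symbols in each table. They were taken by exact gene symbol: the ligands Fgf1, Fgf2 and Fgf9, the intracellular relatives Fgf12 and Fgf13, the receptors Fgfr1, Fgfr2, Fgfr3 and Fgfr4, and Nudt6. RNA of whole retina was sequenced in 3 libraries of Unc119 knockout mice (genotype Unc119-/-, labelled KO) and 3 libraries of wild-type mice (genotype Unc119+/+, labelled WT). UNC119 is a photoreceptor protein that binds the lipid tail of transducin and other acylated proteins. The sources used here give neither how the allele was made nor the age and batch of the animals. The labels do not say that each library came from a separate animal, so the p-values measure the spread between these libraries, which may be technical.

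FGFs bind heparan sulfate and the extracellular part of receptor tyrosine kinases, which then signal through adaptor proteins to the RAS, ERK and PI3 kinase cascades and switch on feedback inhibitors such as the Sprouty proteins. In the retina FGF2 is known as a survival factor for photoreceptors, and its RNA is known to be raised in several models of retinal injury and degeneration. Fgf12 and Fgf13 code for FGF homologous factors, which stay inside the cell and bind voltage-gated sodium channels. Nudt6 codes for a protein with a Nudix domain, and its transcript is also known as the FGF2 antisense RNA.

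Values are FPKM, fragments scaled by transcript length and by the number of mapped fragments, so they are levels per length and can be set beside each other between genes. Unc119 itself averaged 473 ± 32.8 FPKM in KO libraries and 1195 ± 10.1 FPKM in WT libraries (SD, n = 3 each), and no KO library reached a WT library. Photoreceptors were evident in every library. The 8 rod markers summed to 23578 to 24863 FPKM in KO and 22979 to 24882 FPKM in WT libraries, with overlap. The 6 cone markers summed to 697 to 745 FPKM in KO and 752 to 811 FPKM in WT libraries. None of these rod and cone markers passed the adjusted test. KO replicate 3 stood apart most through RNA of the lens. The 15 lens markers summed to 240.1, 542 and 11633 FPKM in KO replicates 1, 2 and 3, and to 116, 703 and 0.750 FPKM in WT replicates 1, 2 and 3. All 15 markers were highest in KO replicate 3, and 10 of them were listed at 0 in WT replicate 3. Where leaving out KO replicate 3 moved a difference below by more than 1.5 times, the value without it is given as well. Xist and Y-linked genes marked KO replicate 1 and WT replicates 1 and 2 as male, and KO replicates 2 and 3 and WT replicate 3 as female.

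Fgf2 and Nudt6 lie tail to tail on chromosome 3 and share exon sequence. On the GRCm38 (mm10) build, GENCODE places Fgf2 (ENSMUSG00000037225.13) on the plus strand at chr3:37348346-37410108 and Nudt6 (ENSMUSG00000050174.15) on the minus strand at chr3:37404910-37420211. The shared span is 5199 bases, chr3:37404910-37410108, and within it 640 bases are exonic in both genes. That is 9.44% of the 6782 exonic bases of Fgf2 and 38.2% of the 1677 exonic bases of Nudt6. The shared bases fall in the last exon of Fgf2, chr3:37404612-37410108, which holds the 3′ UTR. In one Nudt6 transcript model, 2 of 5 exons lie inside that exon. At its other end Nudt6 also shares exon bases with Spata5, which runs on the plus strand. The library kit marks the strand, per the labels, but the sources used here do not name the setting used for counting, so how much of each value comes from the opposite gene cannot be told apart.

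The start regions of the genes of this locus that differed most are shown because they carry the only motif, of the 7 searched, that was matched 2 times in both Fgf2 and Nudt6. The sequences are from RefSeq on GRCm38.p6, in lower case and 5′ to 3′ along the strand named, with the core letters of a cAMP response element, TGACG or CGTCA, in capitals. For Fgf2 only the surroundings of each match are given, and the last sequence is a stretch of the shared start region of the neighbours Cetn4 and Bbs12 that lies outside annotated exons.
Fgf2, first match, chr3:37348501-37348529, plus strand: ctttaggagctgCGTCAccgcagtctcct
Fgf2, second match, chr3:37348635-37348663, plus strand: ggggacgcggggTGACGcggccccgggcc
Nudt6, upstream of the RefSeq start, chr3:37419597-37419822, minus strand: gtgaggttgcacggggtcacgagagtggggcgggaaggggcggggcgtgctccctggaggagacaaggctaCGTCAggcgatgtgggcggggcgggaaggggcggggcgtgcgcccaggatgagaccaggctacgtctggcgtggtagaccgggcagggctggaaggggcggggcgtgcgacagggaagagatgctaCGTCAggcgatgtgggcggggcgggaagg
Cetn4 and Bbs12, shared start region, chr3:37312447-37312518, plus strand: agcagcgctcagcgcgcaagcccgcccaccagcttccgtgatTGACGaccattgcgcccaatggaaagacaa
GENCODE has transcript models of Fgf2, Nudt6 and Cetn4 that start further upstream than those of RefSeq, so all of these stretches lie inside a GENCODE gene span. In Fgf2 the matches begin 140 and 6 bases before the RefSeq start. TGACG or its reverse complement occurs in 20.8% of 32851 RefSeq promoter windows of 300 bases, 250 before and 50 after the start, and at least 2 times in 5.01% of them. Among the other members, 1 Fgf12 window (chr16:28564902-28565201) also held it 2 times, and the Fgf9 window held it 1 time. Neither Fgf12 nor Fgf9 passed the expression test, and nor did Nudt6, Cetn4 or Bbs12. The other Fgf12 windows and those of Fgf13, Fgfr2, Fgfr3 and Fgfr4 held none. The Cetn4 window held it 2 times and the Bbs12 window 1 time. The Nudt6 stretch is built of near repeats, with the GC box GGGCGG at 8 places in it, and that box occurs in 35.7% of all windows. Neither the Fgf2 nor the Nudt6 window held TTCNNNGAA (the STAT motif, in 8.30% of windows), TGANTCA (AP-1, 7.81%), TTGCNNNAA (C/EBP, 9.56%) or a kB consensus (4.51%) on either strand. The Fgf2 window held GCGNGGGCG (EGR, 5.55% of windows) at 1 place and the Nudt6 window at none. The motifs were chosen with the expression results known, and a match is a description of letters only.

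Fgf2, the basic FGF, had 7.78 times the mean level in KO retina that it had in WT retina, and passed the test. It stood at 10.5, 19.8 and 16.2 FPKM in KO replicates 1, 2 and 3, against 1.32, 2.78 and 1.88 FPKM in WT replicates 1, 2 and 3. The lowest KO library was well above the highest WT library, and KO replicate 2 was highest of all. The means were 15.5 ± 4.67 FPKM in KO and 1.99 ± 0.733 FPKM in WT libraries (SD, n = 3 each). On the log2(FPKM + 1) scale, where changes of low genes are understated, the difference was 2.45 (SE 0.24, 95% interval 1.89 to 3.01), with an adjusted p of 0.0101 by limma over all 14176 genes tested. Fgf2 was the only one of the 10 genes to pass the adjusted threshold of 0.05, which 0.233% of all genes tested passed (0.205% as higher in KO and 0.0282% as lower). Without KO replicate 3 the difference was 2.40 (adjusted p 0.0408). The adjusted p was 0.0565 without WT replicate 1, 0.0642 without WT replicate 3 and 0.0773 with the lens level as a term, at differences of 2.28, 2.44 and 2.25. In the male libraries the KO level was 5.13 times the WT mean, and in the female libraries the KO mean was 9.57 times the WT level.

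**Figure D1:**
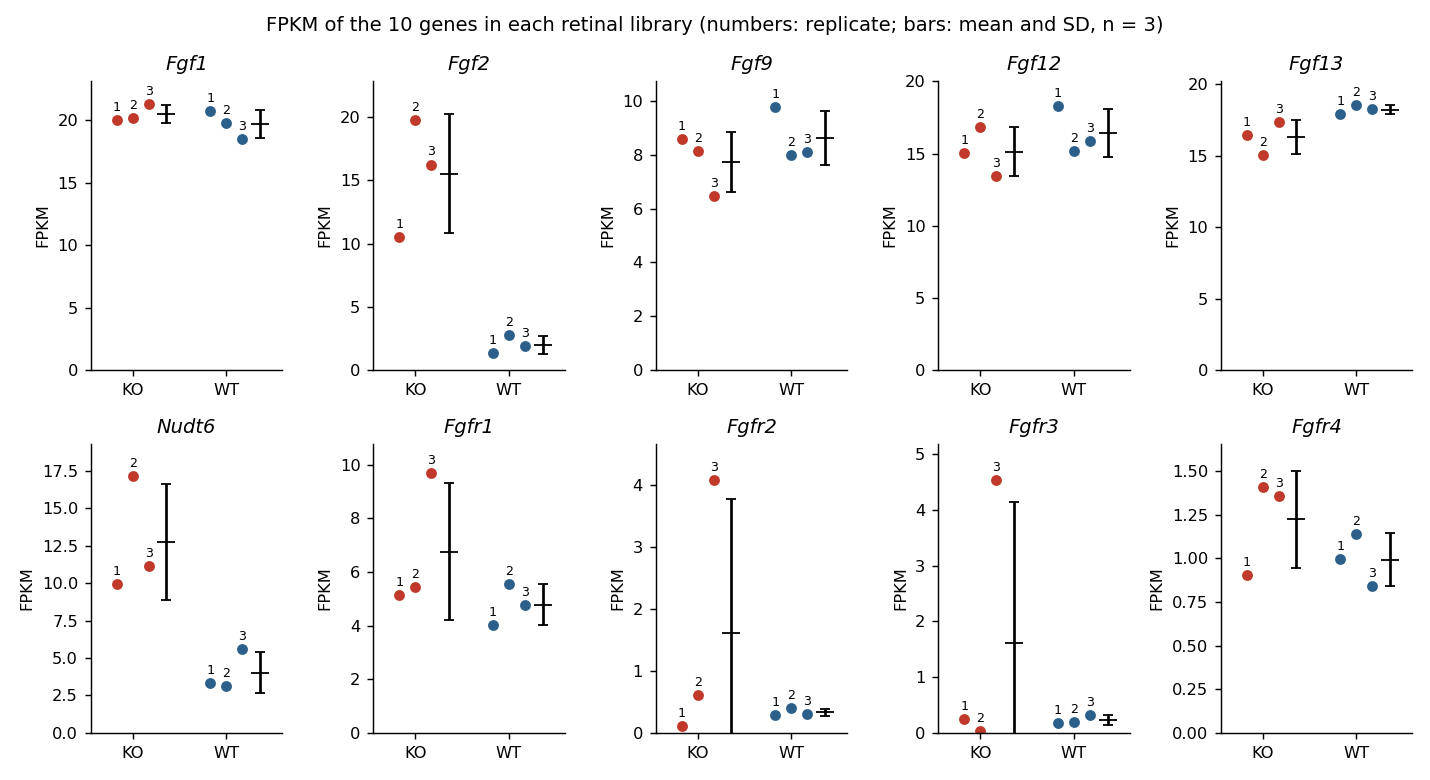
FPKM of each of the 10 genes, 1 panel a gene, with KO libraries left of WT libraries, replicate numbers above the points, and mean and SD (n = 3) beside them (bars cut at 0 for Fgfr2 and Fgfr3). Fgf2 and Nudt6 have all KO points above all WT points, Fgf13 has all KO points below, and Fgfr2 and Fgfr3 are high in KO replicate 3.

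Nudt6 was also higher in every KO library, but did not pass the adjusted test. It stood at 9.97, 17.1 and 11.1 FPKM in KO replicates 1, 2 and 3, against 3.34, 3.12 and 5.62 FPKM in WT replicates 1, 2 and 3. KO replicate 2 was again the highest and the groups did not overlap, which was so for 15.9% of all genes tested (7.83% with KO higher). The means were 12.7 ± 3.85 FPKM in KO and 4.03 ± 1.38 FPKM in WT libraries (SD, n = 3 each), a ratio of 3.17, and the log2 difference was 1.45 (95% interval 0.91 to 1.99, adjusted p 0.0864). Over 17 other settings the adjusted p ran from 0.0696 to 0.336. In the male libraries the KO level was 3.09 times the WT mean, and in the female libraries the KO mean was 2.52 times the WT level.

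The ratio between the overlapping genes was lower in every KO library. Nudt6 divided by Fgf2 gave 0.947, 0.866 and 0.686 in KO replicates 1, 2 and 3, against 2.53, 1.12 and 2.98 in WT replicates 1, 2 and 3. By FPKM, Fgf2 was thus above Nudt6 in each KO library and below it in each WT library. The genes share exon bases and the setting used for counting is not named, so which transcript was the more abundant cannot be told. The log2 ratio averaged -0.28 ± 0.24 in KO and 1.03 ± 0.75 in WT libraries (SD, n = 3 each), a difference of -1.30, with an exact two-sided permutation p of 0.1, the smallest that 3 libraries against 3 can give.

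**Figure D2:**
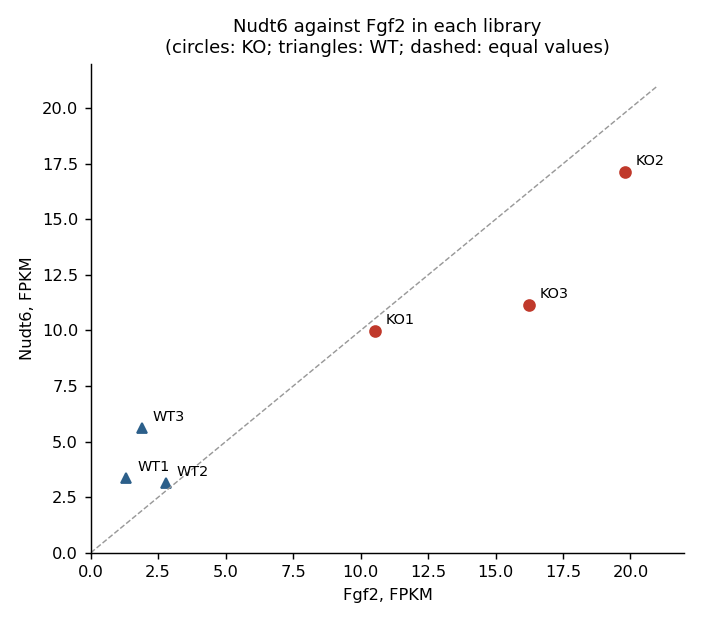
Nudt6 FPKM against Fgf2 FPKM in each library, KO as circles and WT as triangles, with a dashed line of equal values. The 3 KO libraries lie below the line, at 10.5 to 19.8 FPKM of Fgf2, and the 3 WT libraries above it, at 1.32 to 2.78 FPKM.

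The summed microglial markers were also higher in every KO library. The 6 markers summed to 30.3, 30.8 and 31.5 FPKM in KO replicates 1, 2 and 3, and to 15.9 to 20.1 FPKM in WT libraries. The highest sum, in KO replicate 3, was only 1.02 times the next, so the order of the KO libraries by this sum says little. In 4 of the 6 the groups did not overlap, with KO higher, which was so for 7.83% of all genes tested. None of the 6 passed the adjusted test and none was listed at 0. The 9 markers of Müller glia summed to 1764 to 2105 FPKM in KO and 1723 to 1838 FPKM in WT libraries, and none of them passed. The top of the KO range was KO replicate 3, and the other KO sums, 1764 and 1784 FPKM, lay within the WT range. Of the 9 markers, 3 were higher and 2 lower in KO without overlap, against 7.83% and 8.04% of all genes tested. Gfap, the filament protein gene of astrocytes and reactive Müller glia, was picked out after its values were seen. It stood at 15.3, 15.8 and 17.1 FPKM in KO replicates 1, 2 and 3, against 8.63, 7.35 and 7.91 FPKM in WT replicates 1, 2 and 3. Its groups did not overlap and it passed the test, with a log2 difference of 0.93 (adjusted p 0.00447). The part of these cell types in the Fgf2 and Nudt6 results was not tested. In whole retina, a change in the number of cells of a type and a change in RNA per cell cannot be told apart.

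Of the other secreted ligands, neither differed by more than the spread between libraries. Fgf1, the acidic FGF that binds every FGF receptor, was the most abundant of the 10 genes in both genotypes (chr18:38838673-38929472, minus strand). It stood at 20.03, 20.2 and 21.3 FPKM in KO replicates 1, 2 and 3, against 20.8, 19.8 and 18.5 FPKM in WT replicates 1, 2 and 3. The groups overlapped, and the log2 difference was 0.06 (95% interval -0.09 to 0.20, adjusted p 0.807), or 0.03 without KO replicate 3. Fgf9, known from the developing eye as a ligand of the neural retina (chr14:58070547-58112720, plus strand), stood at 8.58, 8.15 and 6.46 FPKM in KO replicates 1, 2 and 3, against 9.77, 7.998 and 8.09 FPKM in WT replicates 1, 2 and 3. Its groups overlapped as well, with KO replicate 3 lowest and WT replicate 1 highest, and the log2 difference was -0.14 (95% interval -0.42 to 0.13, adjusted p 0.739), or -0.03 without KO replicate 3.

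Among these secreted ligands the share taken by Fgf2 was therefore larger in KO retina. Fgf2 made up 26.9%, 41.1% and 36.9% of the summed FPKM of Fgf1, Fgf2 and Fgf9 in KO replicates 1, 2 and 3, against 4.15%, 9.08% and 6.60% in WT replicates 1, 2 and 3. The sum itself was 39.1, 48.1 and 44.0 FPKM in KO libraries and 31.9, 30.6 and 28.5 FPKM in WT libraries. In KO replicate 2 Fgf2 reached 0.982 of the Fgf1 level, whereas in WT libraries it lay between 0.0637 and 0.140 of it. By mean level Fgf2 ranked 3 of the 10 genes in KO and 7 in WT libraries. In KO libraries its range overlapped those of its neighbours in that order, Fgf13 and Fgf12, and in WT libraries it overlapped neither Nudt6 above it nor Fgfr4 below it.

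Of 17 further ligands and FGF homologous factors, 4 had a mean of at least 0.5 FPKM and could be tested, and none passed. Fgf11, another FGF homologous factor, was the most abundant of them at 28.6 ± 0.509 FPKM in KO and 25.9 ± 1.20 FPKM in WT libraries (SD, n = 3 each). Its groups did not overlap, but the log2 difference was 0.14 (adjusted p 0.515). The tested secreted ligands of this list were low, with Fgf17 at 0.622 ± 0.0891 FPKM in KO and 0.542 ± 0.185 FPKM in WT libraries (adjusted p 0.900) and Fgf22 at 1.37 ± 0.762 and 1.002 ± 0.891 FPKM in KO and WT libraries (log2 difference 0.32, adjusted p 0.825, or 0.07 without KO replicate 3). The median log2 difference of the 4 was 0.11, against -0.00 over all genes tested.

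The FGF homologous factors among the 10 genes averaged 0.893 (Fgf13) and 0.920 (Fgf12) of their WT level in KO retina, and neither passed the adjusted test. Fgf13 (chrX:59062145-59568071, minus strand), which binds sodium channels and microtubules, stood at 16.4, 15.0 and 17.4 FPKM in KO replicates 1, 2 and 3, against 17.9, 18.5 and 18.3 FPKM in WT replicates 1, 2 and 3. Every KO library was below every WT library, which was so for 8.04% of all genes tested. The means were 16.3 ± 1.17 FPKM in KO and 18.2 ± 0.319 FPKM in WT libraries (SD, n = 3 each), and the log2 difference was -0.16 (95% interval -0.31 to -0.00). Its unadjusted p was 0.0480, a level that 9.0% of all genes tested passed (5.19% as higher in KO and 3.81% as lower), and its adjusted p was 0.551. Fgf12 (chr16:28160098-28753068, minus strand) stood at 15.0, 16.8 and 13.5 FPKM in KO replicates 1, 2 and 3, against 18.3, 15.1 and 15.9 FPKM in WT replicates 1, 2 and 3. Its groups overlapped, and the log2 difference was -0.11 (95% interval -0.34 to 0.12, adjusted p 0.747), or -0.04 without KO replicate 3. Together Fgf12 and Fgf13 summed to 31.5, 31.9 and 30.8 FPKM in KO libraries and 36.2, 33.7 and 34.1 FPKM in WT libraries, again without overlap. Over all 4 FGF homologous factors, Fgf11 to Fgf14, the sums did overlap, at 66.0, 68.3 and 65.5 FPKM in KO libraries and 70.6, 66.2 and 65.4 FPKM in WT libraries.

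The listed partner genes of these factors, which are sodium channel genes and Mapk8ip2, were not called. Of 14 partner genes, 12 could be tested, 3 were fitted higher and 9 lower, none passed, and the median log2 difference was -0.05. Scn1a, a main sodium channel subunit, averaged 12.01 ± 0.477 FPKM in KO and 13.1 ± 0.0886 FPKM in WT libraries (SD, n = 3 each) without overlap, with a log2 difference of -0.11 (adjusted p 0.630). The accessory subunit Scn3b averaged 7.30 ± 1.19 FPKM in KO and 9.02 ± 0.633 FPKM in WT libraries, with a log2 difference of -0.28 (adjusted p 0.532). Another, Scn4b, averaged 1.18 ± 0.218 FPKM in KO and 1.37 ± 0.151 FPKM in WT libraries (log2 difference -0.12, adjusted p 0.801, or -0.04 without KO replicate 3).

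None of the 4 receptors passed the test, and KO replicate 3 set the values of 3 of them. Fgfr1 (chr8:25513654-25575718, plus strand), the most abundant receptor in the retina by these data, stood at 5.13, 5.43 and 9.70 FPKM in KO replicates 1, 2 and 3, against 4.03, 5.55 and 4.78 FPKM in WT replicates 1, 2 and 3. KO replicate 3 was 1.75 times the next highest library, while KO replicates 1 and 2 lay within the WT range. The log2 difference was 0.38 (95% interval -0.11 to 0.88, adjusted p 0.637), and 0.13 (95% interval -0.18 to 0.44) without KO replicate 3. Gm16159, on the opposite strand, shares 164 exonic bases with Fgfr1.

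Fgfr2 (chr7:130162451-133123350, minus strand) and Fgfr3 (chr5:33721674-33737068, plus strand), both receptors with known roles in lens fibre differentiation, had at most 0.615 FPKM outside KO replicate 3. Fgfr2 stood at 0.114, 0.615 and 4.08 FPKM in KO replicates 1, 2 and 3, against 0.294, 0.401 and 0.299 FPKM in WT replicates 1, 2 and 3. Fgfr3 stood at 0.248, 0.0355 and 4.53 FPKM in KO replicates 1, 2 and 3, against 0.174, 0.199 and 0.329 FPKM in WT replicates 1, 2 and 3. KO replicate 3 was 6.64 times the next highest library for Fgfr2 and 13.8 times for Fgfr3, and the other KO libraries lay on both sides of the WT range for Fgfr2. The log2 differences were 0.65 (95% interval -0.48 to 1.79, adjusted p 0.707) for Fgfr2 and 0.64 (95% interval -0.66 to 1.95, adjusted p 0.750) for Fgfr3. Without KO replicate 3 their means over 5 libraries were 0.345 and 0.197 FPKM, under the filter of 0.5, so they could not be tested. With the lens level as a term their differences turned to -0.15 for Fgfr2 and -0.18 for Fgfr3. Fgfr3 also shares 998 exonic bases with a gene on the opposite strand, G630022F23Rik.

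**Figure D3:**
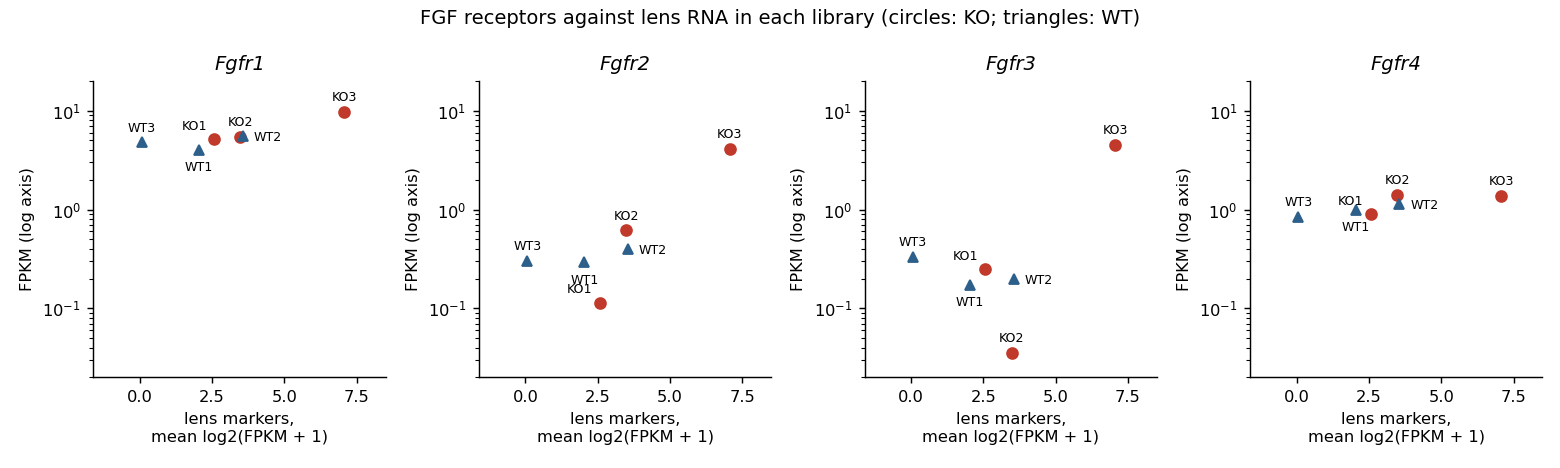
FPKM of each FGF receptor (log axis) against the mean log2(FPKM + 1) of the 15 lens markers in each library, KO as circles and WT as triangles. KO replicate 3 has the highest lens level and the highest Fgfr1, Fgfr2 and Fgfr3, at 9.70, 4.08 and 4.53 FPKM, and lies among the other libraries for Fgfr4.

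Fgfr4 (chr13:55152640-55168759, plus strand), a receptor best known from liver, was not highest in KO replicate 3. It stood at 0.904, 1.41 and 1.36 FPKM in KO replicates 1, 2 and 3, against 0.997, 1.14 and 0.841 FPKM in WT replicates 1, 2 and 3. The groups overlapped, and the log2 difference was 0.15 (95% interval -0.19 to 0.50, adjusted p 0.775). The 4 receptors together summed to 6.40, 7.49 and 19.7 FPKM in KO replicates 1, 2 and 3, against 5.49, 7.29 and 6.25 FPKM in WT replicates 1, 2 and 3 (difference 4.84 FPKM, exact two-sided permutation p of 0.2, n = 3 each). Without KO replicate 3 the difference was 0.60 FPKM. Fgfr1 made up 80.2%, 72.5% and 49.3% of the sum in KO replicates 1, 2 and 3, against 73.3%, 76.1% and 76.5% in WT replicates 1, 2 and 3. Fgfr2 and Fgfr3 made up 43.8% of it in KO replicate 3, and between 5.66% and 10.1% in the other 5 libraries.

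**Figure D4:**
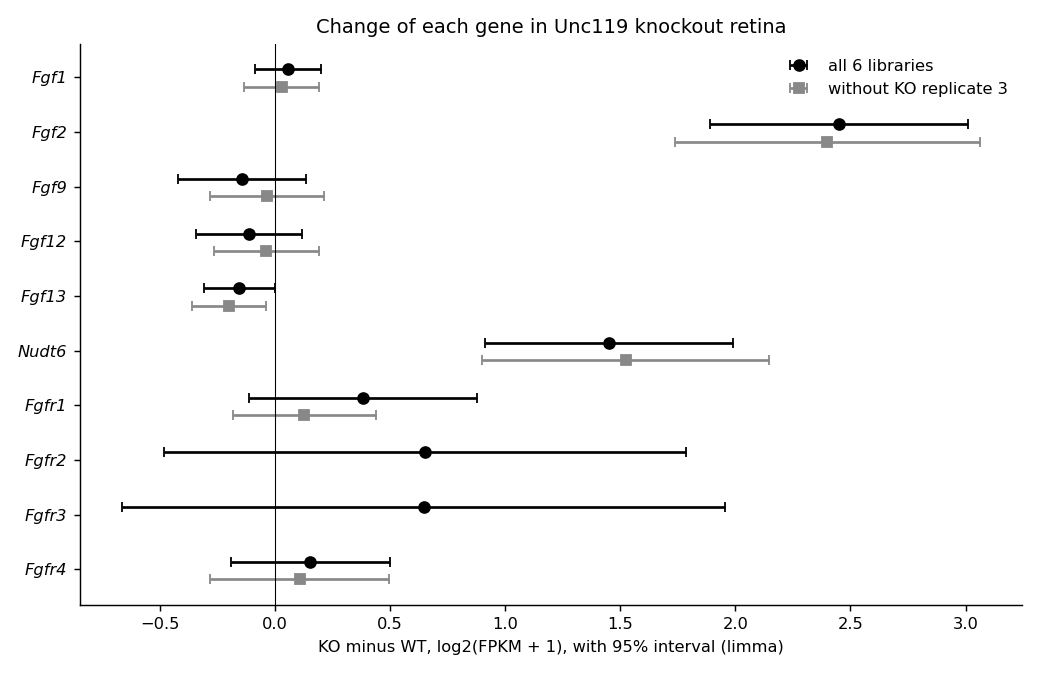
Difference between KO and WT of each gene on the log2(FPKM + 1) scale with its 95% interval from limma, for all 6 libraries (black circles) and without KO replicate 3 (grey squares). The intervals of Fgf2 and Nudt6 lie far above 0 both ways; Fgfr2 and Fgfr3 have no grey square because they fell under the filter without that library.

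Over the 10 genes, all of which passed the filter on low values, 7 were fitted higher and 3 lower in KO, with a median log2 difference of 0.27. The median of all genes tested was -0.00. Fgfr2 and Fgfr3 passed the filter through KO replicate 3 alone. Without that library the median of the remaining 8 genes was 0.07, and with the lens level as a term the median of the 10 was -0.01. By libraries, 2 genes were higher without overlap, 1 was lower without overlap and 7 overlapped. Over all genes tested, 7.83% were higher and 8.04% lower without overlap.

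FGF co-receptors and the enzymes that build heparan sulfate were not called. Of 27 genes 25 could be tested, 16 were fitted higher and 9 lower, and the median log2 difference was 0.05. Without KO replicate 3, 10 were fitted higher and 14 lower, with a median of -0.01. With all 6 libraries, 1 tested gene was higher and 3 were lower in KO without overlap, against 7.83% and 8.04% of all genes tested. Sdc1, a cell surface heparan sulfate carrier, averaged 0.949 ± 0.519 FPKM in KO and 0.277 ± 0.164 FPKM in WT libraries (SD, n = 3 each) without overlap (log2 difference 0.59, adjusted p 0.499), and was under the filter without KO replicate 3. The syndecan Sdc2 averaged 14.7 ± 3.52 FPKM in KO and 11.6 ± 0.471 FPKM in WT libraries (log2 difference 0.30, adjusted p 0.582), with KO replicate 3 highest at 18.6 FPKM. Without that library the Sdc2 difference was 0.13. The glypican Gpc4 averaged 2.45 ± 1.61 FPKM in KO and 1.62 ± 0.244 FPKM in WT libraries (log2 difference 0.30, adjusted p 0.774), and its difference turned to -0.05 without KO replicate 3.

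No gene of the relay from the receptors to ERK and AKT passed. All 28 could be tested, 15 were fitted higher and 13 lower, and the median log2 difference was 0.00. Without KO replicate 3, 13 were fitted higher and 15 lower, with a median of -0.01. Akt2, a kinase of the PI3 kinase branch, averaged 22.3 ± 0.748 FPKM in KO and 19.1 ± 1.71 FPKM in WT libraries (SD, n = 3 each), without overlap (log2 difference 0.21, adjusted p 0.482). Gab1, the docking protein that couples receptors to PI3 kinase, averaged 6.70 ± 0.257 FPKM in KO and 5.73 ± 0.0307 FPKM in WT libraries, also without overlap (log2 difference 0.19, adjusted p 0.521). The adaptor Shc1 averaged 7.73 ± 0.826 FPKM in KO and 6.72 ± 0.156 FPKM in WT libraries (log2 difference 0.17, adjusted p 0.614, or 0.11 without KO replicate 3).

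None of the tested target and feedback genes of FGF signalling passed in either direction. Of 20 such genes 17 could be tested, 6 were fitted higher and 11 lower, and the median log2 difference was -0.06. Without KO replicate 3, 7 were fitted higher and 10 lower, with a median of -0.03, and none passed. In none of the 17 did the libraries of the genotypes separate, with all 6 libraries, against 15.9% of all genes tested that did. Of the 3 genes under the filter, only Myc separated, at means of 0.340 FPKM in KO and 0.172 FPKM in WT libraries. Myc was named after its values were seen. The feedback inhibitor Spry2 averaged 26.3 ± 2.24 FPKM in KO and 31.4 ± 3.63 FPKM in WT libraries (SD, n = 3 each; log2 difference -0.24, adjusted p 0.519). Dusp5, a phosphatase that acts on ERK, averaged 7.39 ± 1.01 FPKM in KO and 9.52 ± 1.92 FPKM in WT libraries (log2 difference -0.32, adjusted p 0.579). The immediate early gene Egr1 averaged 16.3 ± 2.11 FPKM in KO and 19.5 ± 4.94 FPKM in WT libraries (log2 difference -0.22, adjusted p 0.739).

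None of the other Nudix genes passed. All 22 could be tested, 14 were fitted higher and 8 lower, and the log2 differences had a median of 0.03, against 1.45 for Nudt6. Nudt13 averaged 5.97 ± 0.0811 FPKM in KO and 5.18 ± 0.506 FPKM in WT libraries (SD, n = 3 each; log2 difference 0.18, adjusted p 0.610), without overlap. Nudt17 averaged 2.53 ± 0.502 FPKM in KO and 1.98 ± 0.841 FPKM in WT libraries (log2 difference 0.27, adjusted p 0.718).

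The neighbourhood of Fgf2 was then read gene by gene. Within 1 Mb of the Fgf2 start 13 genes could be tested, 11 of them other than Fgf2 and Nudt6, and none of the 11 passed. In 2 of the 11, Cetn4 and Bbs12, every KO library was above every WT library, and in the other 9 the groups overlapped. Of all genes tested, 7.83% were higher in KO without overlap and 15.9% did not overlap in either direction. Cetn4, a centrin of cilia, starts 35.6 kb before Fgf2 and stood at 12.6, 10.4 and 12.1 FPKM in KO replicates 1, 2 and 3, against 7.99, 7.26 and 7.58 FPKM in WT replicates 1, 2 and 3. Its log2 difference was 0.56 (95% interval 0.36 to 0.76, adjusted p 0.0782). Bbs12, a Bardet-Biedl syndrome gene that starts 35.8 kb before Fgf2, stood at 28.5, 32.1 and 29.6 FPKM in KO replicates 1, 2 and 3, against 25.1, 25.1 and 24.6 FPKM in WT replicates 1, 2 and 3. Its log2 difference was 0.26 (95% interval 0.12 to 0.39, adjusted p 0.245).

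Cetn4 and Bbs12 start head to head, around the stretch printed above, and 1 annotated exon of Cetn4 overlaps the first exon of Bbs12 on the opposite strand, so their values are uncertain for the same reason as those of Fgf2 and Nudt6. GENCODE also annotates a spliced transcript, Gm43439, whose first exon ends at chr3:37312585, where the first exon of Bbs12 ends, and whose second begins at chr3:37404612, where the last exon of Fgf2 begins. It was not analysed here. The other 9 genes within 1 Mb had log2 differences from -0.17 to 0.21 with a median of -0.02. Among them Spata5, an ATPase gene that shares exon bases with Nudt6, averaged 7.72 ± 0.0954 FPKM in KO and 8.04 ± 0.585 FPKM in WT libraries (SD, n = 3 each; log2 difference -0.05). At the low end 4932438A13Rik averaged 30.1 ± 1.95 FPKM in KO and 33.9 ± 2.67 FPKM in WT libraries (adjusted p 0.570).

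**Figure D5:**
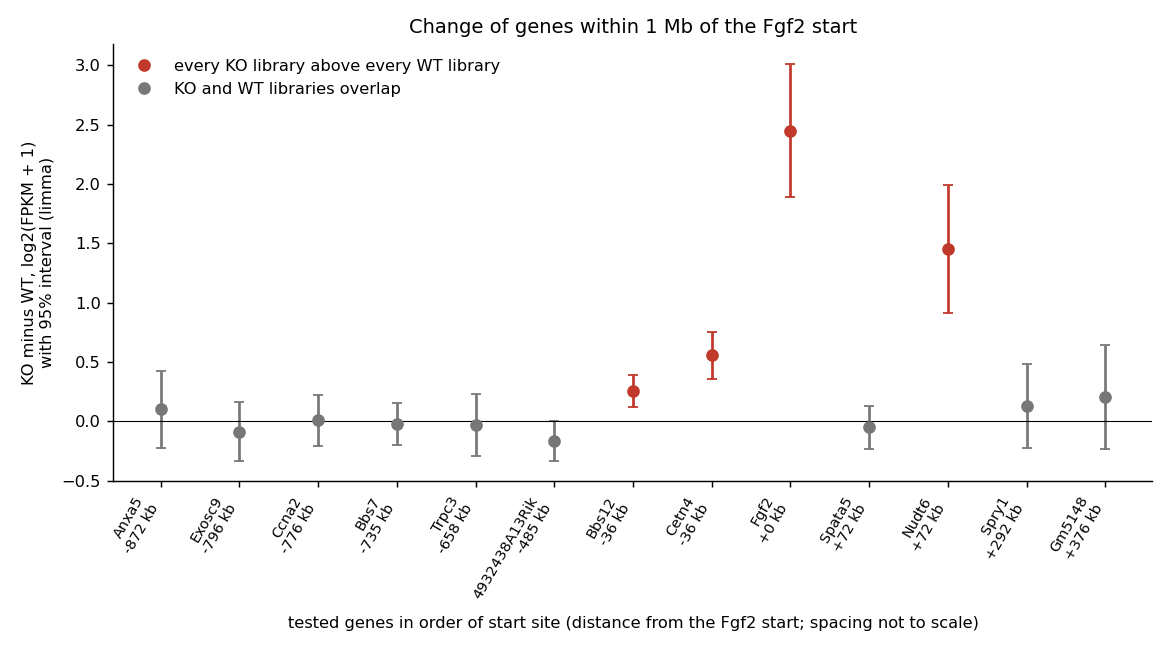
Difference between KO and WT on the log2(FPKM + 1) scale, with 95% intervals from limma, for the 13 tested genes within 1 Mb of the Fgf2 start, in order of their start sites with the distance in kb. Fgf2 at 2.45 and Nudt6 at 1.45 stand highest, Cetn4 and Bbs12 are the other genes without overlap (red), and the 9 grey genes lie between -0.17 and 0.21.

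The genes whose profile over the 6 libraries came nearest to that of Fgf2, by the root mean square difference of log2(FPKM + 1) after centring each gene on its own mean, were Edn2 (0.461), Lad1 (0.570), C4b (0.593), Tnnt2 (0.606) and Nudt6 itself (0.608). Edn2, which codes for endothelin-2, stood at 31.7, 42.3 and 37.5 FPKM in KO replicates 1, 2 and 3, against 3.29, 2.99 and 3.12 FPKM in WT replicates 1, 2 and 3. Like Fgf2 and Nudt6 it was highest in KO replicate 2. Nearest to Nudt6 were Lrrc2 (0.265), Bst2 (0.272), Lad1 (0.281), Gadd45b (0.296) and C1qa (0.308), and Fgf2 came 202 in that order. Lrrc2 stood at 15.0, 20.3 and 17.8 FPKM in KO replicates 1, 2 and 3, against 6.99, 6.52 and 6.76 FPKM in WT replicates 1, 2 and 3. C1qa is also one of the microglial markers. All 8 of these other genes had every KO library above every WT library, and such a measure finds genes with a difference of similar size. C4b has a near-identical copy, C4a, so its value is uncertain.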

How the data were processed

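Whole retina RNA of 3 KO and 3 WT libraries was measured. Per the submitters' processing notes, TopHat2 2.1.1, Cuffdiff 2.2.1 and the mm10 genome were used, and the authors deposited 1 table of FPKM values per library, per the file headers. FPKM hides the number of fragments, so the absolute depth is unknown. Relative to WT replicate 2, depth read from genes of at most 0.3 FPKM (ratios within 0.015 log2 units) was 0.935, 0.931 and 0.964 in KO replicates 1, 2 and 3, and 0.763 and 0.805 in WT replicates 1 and 3.

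Genes with a mean of at least 0.5 FPKM (14176) were compared on log2(FPKM + 1) with limma 3.58.1 (R 4.3.3), with a prior variance modelled on expression. Tests were two-sided, p-values were adjusted by Benjamini-Hochberg over all of these genes, and the threshold was 0.05. The script was tested on simulated data. Ratios and sums were compared with exact permutation tests. The alternatives were pseudocounts, filters, scalings, weights, terms for sex, lens level and replicate number, and each library left out; their use on listed genes and neighbours was added after seeing the data. Nothing in the labels says that replicate numbers pair libraries, and the main fit used no pairing. Named genes were the 10 genes, the 3 of each list with the largest absolute difference, and the 5 nearest to Fgf2 and to Nudt6; 1 listed gene is not reported here. The 10 genes and the lists were chosen with earlier results of these data known. Gene positions are from GENCODE on GRCm38. Sequences are from RefSeq, where 8 of the 10 genes had a promoter window.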

Additional observations from a re-analysis of the deposited data

How the results depend on the processing

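The 95% intervals and tests rest on 3 libraries a genotype, and FPKM gives no fragment counts, so the precision of low genes such as Fgfr2 and Fgfr3 is unknown. Over 17 alternatives, 647 of 684 recomputed values kept their direction and side of the threshold or stayed near their value. The Fgf2 difference lay between 2.25 and 2.91 and passed in 15 of 18 settings; it did not pass with a lens term (2.25) or without WT replicate 1 or WT replicate 3 (2.28 and 2.44; 2.26 to 2.69 over all libraries left out), when 0 of the 10 genes were called. The lens term also turned Fgf1 to -0.0013, Fgfr2 to -0.15, Fgfr3 to -0.18, Fgf22 to -0.29, Gpc4 to -0.0701 and Scn4b to 0.0062. With 1 library left out Gpc4 ran from -0.0542 (without KO replicate 3) to 0.577, Fgf17 from -0.0241 (without WT replicate 1) to 0.141 and Fgf22 from -0.12 (without WT replicate 3) to 0.598. Calls over all genes, 33, were 20 without the trend, 19 with a sex term, 7 with a lens term and 12 to 27 with 1 library left out. The median of the further ligands, 0.11, was 0.18 with a pseudocount of 0.1, 0.0385 with no filter, 0.0458 with a filter of 2 FPKM, -0.0024 with the lens term and -0.0409 to 0.136 with 1 library left out. With the lens term the medians were -0.0137 for co-receptors and heparan sulfate and -0.0202 for the relay. Quantile scaling gave -0.0936 for the partners of the FGF homologous factors. With 1 library left out the medians ran from -0.0142 to 0.0791 for co-receptors, -0.0142 to 0.0293 for the relay and -0.071 to -0.0196 for targets. They ran from -0.08 to -0.0444 for the same partners, and from 0.0212 to 0.0432 for Nudix genes. For 11 listed neighbours of Fgf2 (median -0.02) they ran from -0.0493 to 0.0446. The log2 ratio of Nudt6 to Fgf2 differed by -1.73 to -1.03 and the receptor sum by 0.60 to 7.24 FPKM. The cause of these changes was not tested. With the replicate number as a block, 15 genes were called in all and Fgf2 passed at 2.45 (adjusted p 0.00163 by limma). After centring within each genotype, same-numbered libraries had correlations of 0.0720, -0.0902 and -0.119. KO and WT libraries of different number had correlations from -0.0846 to 0.166. These values gave no sign of pairing by number, but 3 libraries a genotype are too few to exclude it.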

Other observations

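Fgfbp1, which codes for a secreted carrier that frees FGFs from the matrix, was too low to be tested and was picked out after its values were seen. It stood at 0.534, 0.537 and 0.907 FPKM in KO replicates 1, 2 and 3, against 0, 0.125 and 0 FPKM in WT replicates 1, 2 and 3. Every KO library was above every WT library, with or without KO replicate 3. Of the genes that could be tested, 7.83% were higher in KO without overlap.

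Ext1, a polymerase of heparan sulfate, had the lowest adjusted p of the co-receptor and heparan sulfate genes and was likewise picked out after its values were seen. It stood at 15.1, 14.3 and 15.2 FPKM in KO replicates 1, 2 and 3, against 18.3, 17.4 and 18.1 FPKM in WT replicates 1, 2 and 3, without overlap, with a log2 difference of -0.26 (adjusted p 0.245 by limma).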
